A study of Mus musculus with 18 samples.

Results

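The heat shock chaperones and cochaperones described here are 10 genes, Hspa1a, Hspa1b, Hspa8, Hsph1, Hsp90aa1, Hspb1, Hspd1, Dnajb1, Dnajb4 and Bag3, taken by symbol from a table of read counts for 55487 genes. All 10 had enough counts to be among the 16432 genes tested. The libraries came from primary cultures of mouse Leydig cells, which make testosterone in the testis. The cells were transfected with siprdx1, an siRNA that targets Prdx1, or with the control siNC. Prdx1 encodes peroxiredoxin 1, which breaks down hydrogen peroxide (H2O2). In each siRNA arm, 3 groups of 3 libraries were made, for 18 in all. The groups called siNC and siprdx1 had no H2O2, those called siNC+H2O2 and siprdx1+H2O2 had 200 µM H2O2 for 30 min, and all 4 then spent 6 h in 0.1% DMSO. The groups called siNC+H2O2+FV and siprdx1+H2O2+FV had the same H2O2 exposure and then 5 µM fluvastatin (FV), a statin that blocks the enzyme at the head of cholesterol and isoprenoid synthesis, for 6 h. The descriptions give no DMSO for the groups with fluvastatin, and fluvastatin without H2O2 was not among the groups, so fluvastatin was measured only on cells already exposed to H2O2. Strain and age are not given in the sources used here. The replicates are called biological but are not said to come from separate animals, so p-values measure the spread between these libraries.

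Library totals ran from 15201530 to 23898435 counts, with a common biological coefficient of variation of 7.01%. Prdx1 stood at 1279 to 1690 CPM (counts brought to one common depth by TMM scaling) over the 9 siNC-arm libraries and at 426 to 576 CPM over the 9 siprdx1-arm libraries, as the labels say. Of 8 Leydig markers, Cyp17a1 and Hsd17b3 averaged under 1 CPM, and the 8 together summed to 986 to 1497 CPM per library. The 8 fibroblast and stroma markers had the largest sum of the lists, at 15077 to 19702 CPM. The 12 macrophage markers summed to 7625 to 9773 CPM, and among them Lyz2 averaged 5677 CPM over the 18 libraries. The 7 smooth muscle and peritubular myoid markers summed to 1159 to 2711 CPM. The 6 Sertoli markers summed to 1170 to 1467 CPM and the 5 endothelial markers to 70.4 to 98.5 CPM. All 6 germ cell markers averaged under 1 CPM. In such bulk libraries, fewer cells of a type and less RNA per cell cannot be told apart.

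Heat shock proteins are chaperones that keep other proteins folded or hand them on for refolding or degradation. HSP70 proteins bind unfolded stretches and release them in a cycle driven by ATP, J proteins such as DNAJB1 bring them their substrates and start that cycle, and BAG-domain proteins and HSP110 proteins help to release the nucleotide that ends it. When unfolded protein accumulates, the transcription factor HSF1 is set free to bind heat shock elements, arrays of inverted GAA units, and to raise the inducible members, while constitutive members such as Hspa8 are made in unstressed cells.

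The promoter stretches that hold such units are shown as a description of these genes. Their part in how far a member moved was not tested. Promoter windows, 250 bases before to 50 bases after a gene's start, were read from RefSeq (GRCm38.p6, the mm10 assembly), which gave windows for 8 of the 10 genes and none for Hspa8 or Hsp90aa1. Capitals mark GAANNTTC or TTCNNGAA, which are 2 inverted units and were searched on both strands. The stretches lie at chr17:34972228-34972285 for Hspa1a, chr17:34959310-34959367 for Hspa1b, chr5:135887777-135887854 for Hspb1, chr3:152193846-152193884 for Dnajb4, chr1:55088054-55088081 for Hspd1 and chr5:149636357-149636374 for Hsph1. Hspb1 is on the plus strand and the others are on the minus strand. All lie before the RefSeq start used for the window. In the GENCODE annotation, whose gene coordinates are given with each gene, the stretches of Hspd1 and Hsph1 overlap an annotated exon of the same gene. That of Dnajb4 lies inside its gene coordinates and overlaps no exon.
Hspa1a: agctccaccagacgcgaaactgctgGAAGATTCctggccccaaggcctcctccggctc
Hspa1b: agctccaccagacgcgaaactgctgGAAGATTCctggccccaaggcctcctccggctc
Hspb1: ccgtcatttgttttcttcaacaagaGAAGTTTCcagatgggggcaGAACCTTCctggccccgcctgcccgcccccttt
Dnajb4: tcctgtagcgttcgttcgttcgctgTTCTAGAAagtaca
Hspd1: gggccTTCCGGAAGGTTCTAGAAcggac
Hsph1: aatctTTCTCGAAggctc
The stretches of Hspa1a and Hspa1b are identical base for base, and their full windows of 300 bases differed at 4 bases. Hspb1 holds 2 matches, and in Hspd1 the matches overlap into a longer array. Bag3 had 1 match, after its start. Matches to 2 units were in the windows of 7 of the 8 genes, against 16.97% of all 27025 genes with windows (8 of 12 windows of these genes, against 15.06% of all 32851 windows), and Dnajb1 had none. The longer motif of 3 units, GAANNTTCNNGAA or TTCNNGAANNTTC, each match of which also holds the shorter one, was in windows of 0.6623% of all genes, Hspd1 and Hsph1 among them. It lay before the start in Hspd1 and only after the start in Hsph1, outside the stretch shown for Hsph1. The CArG box, the site of the factor SRF, was in windows of 1.806% of all genes and in none of these 8. A match describes these letters only and does not show a factor bound there.

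The Hspa1a and Hspa1b transcripts are also close to identical, at 99.2% over 2201 bases. Hspa1a (ENSMUSG00000091971, chr17:34969190-34972156) and Hspa1b (ENSMUSG00000090877, chr17:34956436-34959238) are neighbours, each with 1 exon, and encode the stress-inducible HSP70. The counting could split their reads, so each one's values are uncertain and the summed pair is given beside them. The antisense gene Gm20481 shares 564 exonic bases with Hspa1a. Hspa8 (ENSMUSG00000015656, chr9:40800984-40810087), the constitutive HSP70, has 14 near-identical copies, and the best covered, Gm15459, held counts equal to 3.33% of those of Hspa8. Hspd1 (ENSMUSG00000025980, chr1:55077835-55088243), the chaperonin of the mitochondrial matrix, shares 112 exonic bases with its antisense neighbour Hspe1, and its copy Hspd1-ps3 held counts equal to 4.13% of its own. For Hsp90aa1 (ENSMUSG00000021270, chr12:110690605-110702728), the inducible HSP90, the copy Gm12346 held 1.86%. For Hspb1 (ENSMUSG00000004951, chr5:135887919-135889563), a small heat shock protein that holds unfolded protein and stabilises actin filaments, the copy Hsp25-ps1 held 1.01%. No near-identical copy was found for Hsph1 (ENSMUSG00000029657, chr5:149614287-149636376), an HSP110, for the J protein genes Dnajb1 (ENSMUSG00000005483, chr8:83608193-83612653) and Dnajb4 (ENSMUSG00000028035, chr3:152178511-152210302), or for Bag3 (ENSMUSG00000030847, chr7:128523616-128546981), a BAG-domain cochaperone of HSP70.

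In siNC cells without H2O2 the members covered a wide range of levels. Per kilobase of exon, Hspa8 was the highest at 201 ± 15 CPM (SD, n = 3). Hsp90aa1 stood at 68.1 ± 4.4 CPM per kilobase, Bag3 at 62.9 ± 1.6 and Hspd1 at 60.9 ± 5.2. The ranges of Hsp90aa1, Bag3 and Hspd1 overlapped. Hspb1 followed at 30.1 ± 2.9 CPM per kilobase and Hspa1b at 15.2 ± 0.86. Dnajb1 (11.7 ± 0.20) and Dnajb4 (11.6 ± 0.94) did not differ beyond their spread, nor did the lowest members, Hspa1a (3.51 ± 0.39) and Hsph1 (3.02 ± 0.23), whose ranges overlapped. Hspa1a, Hspa1b and Dnajb1, which are known as inducible genes, were thus measured in cells that had seen neither H2O2 nor fluvastatin.

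**Figure D1:**
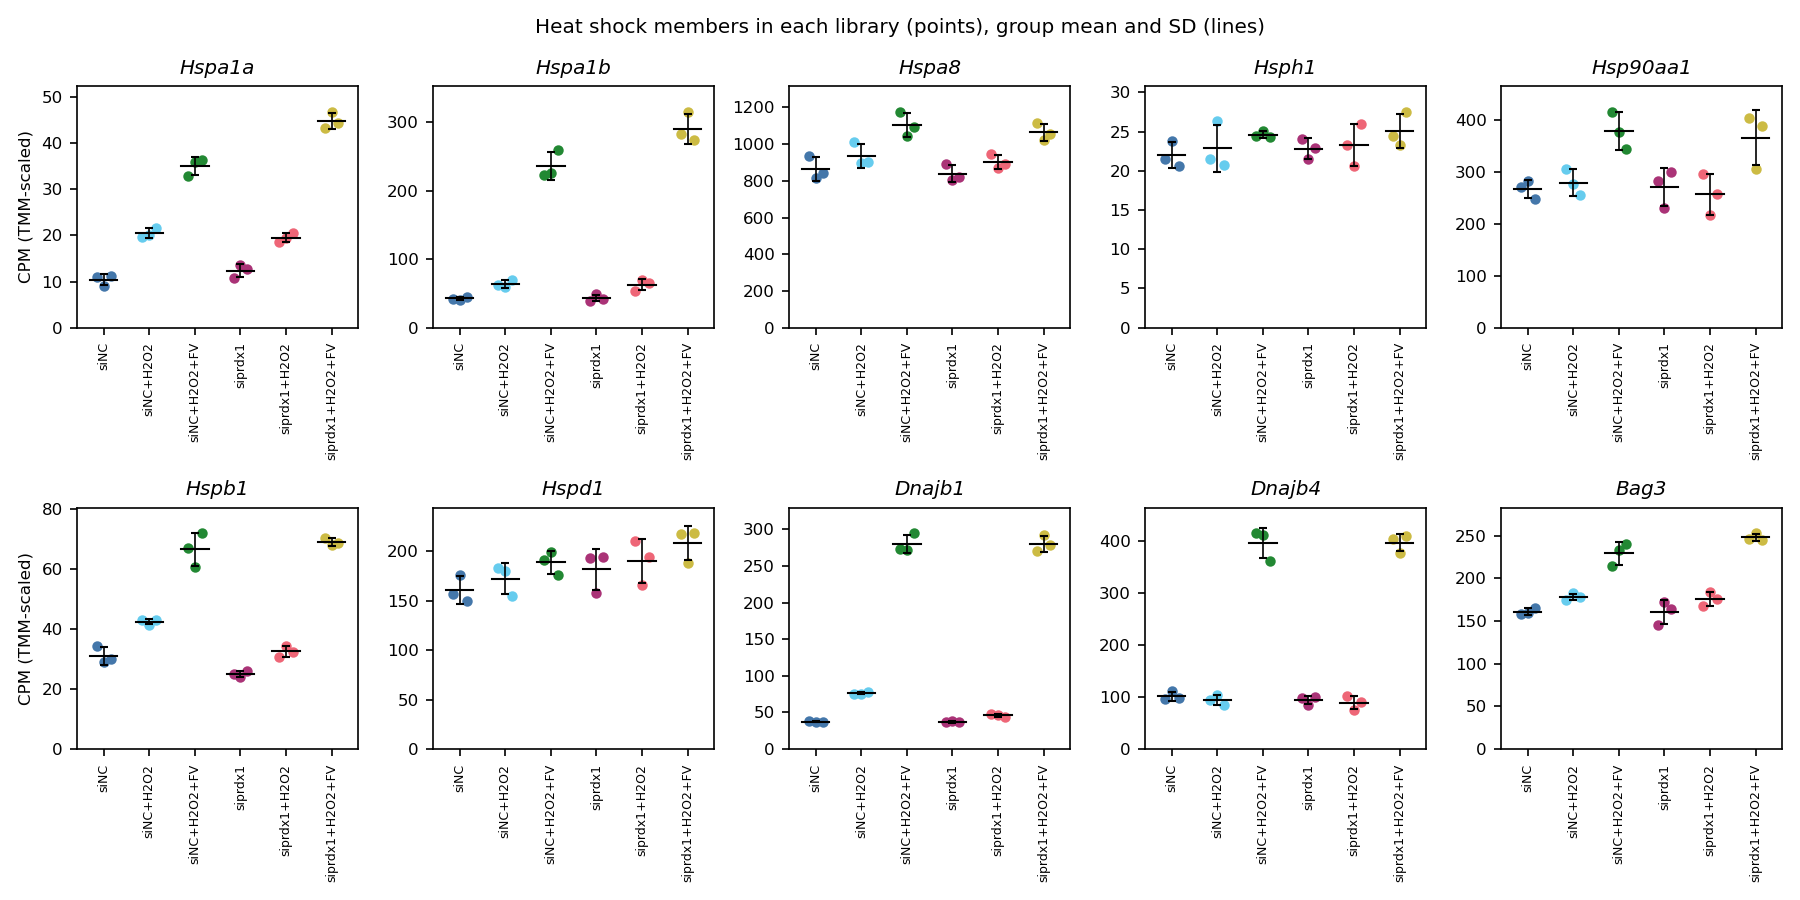
Level of each of the 10 genes in CPM (vertical axis, starting at 0 and scaled per gene) in the 6 groups; points are single libraries and lines are the group mean and SD (n = 3). Dnajb1, Hspa1b and Dnajb4 were highest in all 6 fluvastatin libraries, while Hsph1 stayed within 20.6 to 27.5 CPM and Hspd1 within 149.9 to 218 CPM.

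The first comparison asks what H2O2 alone did in each siRNA arm. In siNC cells, 4 of the 10 members rose, the HSP70 genes Hspa1a and Hspa1b, the J protein gene Dnajb1 and the small heat shock gene Hspb1 (edgeR, adjusted p below 0.05 over all genes tested), where 2.36% of all tested genes rose. The same 4 rose in siprdx1 cells, where 2.48% of all tested genes did. The median log2 fold change of the members was 0.13 in siNC and 0.12 in siprdx1, beside 0.01 and 0.02 over all genes tested.

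Dnajb1, which recruits substrates to HSP70, stood at 38.0, 37.5 and 36.7 CPM in untreated siNC cells and at 75.2, 75.5 and 77.5 CPM after H2O2. In siprdx1 it was 36.4, 38.6 and 36.4 CPM without H2O2 and 47.9, 46.8 and 43.5 CPM after it. All H2O2 libraries were above the untreated ones of their arm, and the siprdx1+H2O2 libraries lay well below those of siNC+H2O2. The log2 fold change was 1.02 ± 0.06 in siNC (SE, n = 3 per group, edgeR adjusted p = 6.18e-12), larger than that of 99.18% of tested genes, and 0.31 ± 0.06 in siprdx1 (edgeR adjusted p = 0.000891).

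Hspa1a was counted at 10.9, 9.09 and 11.2 CPM in untreated siNC cells and at 19.7, 20.2 and 21.7 CPM after H2O2. In siprdx1 it was 10.8, 13.6 and 12.7 CPM and rose to 18.5, 19.5 and 20.6 CPM. The groups did not overlap in either arm, and the log2 fold changes were 0.98 ± 0.09 (edgeR adjusted p = 1.62e-07) and 0.66 ± 0.09 (edgeR adjusted p = 4.05e-05). Its neighbour Hspa1b went from 41.9, 40.4 and 45.2 CPM to 61.5, 59.8 and 69.5 CPM in siNC. In siprdx1 it went from 39.3, 48.4 and 41.5 CPM to 53.4, 69.2 and 64.9 CPM. These groups did not overlap either, with log2 fold changes of 0.58 ± 0.10 in siNC (edgeR adjusted p = 0.000455) and 0.54 ± 0.10 in siprdx1 (edgeR adjusted p = 0.000861). With the counts of the pair summed, the values were 0.67 and 0.56.

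Hspb1 was at 34.4, 28.8 and 29.8 CPM in siNC and at 42.8, 41.3 and 43.1 CPM in siNC+H2O2. In siprdx1 it was at 24.9, 24.1 and 25.9 CPM and after H2O2 at 30.6, 34.3 and 32.4 CPM. The H2O2 libraries were above the untreated ones in both arms, by 0.45 ± 0.07 (edgeR adjusted p = 0.000298) and 0.38 ± 0.08 (edgeR adjusted p = 0.00193) on the log2 scale. The siprdx1+H2O2 libraries reached only the range of untreated siNC libraries.

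The constitutive Hspa8 and the cochaperone gene Bag3 did not pass the test for H2O2. Hspa8 was at 938, 815 and 841 CPM in siNC against 1013, 895 and 903 CPM in siNC+H2O2, overlapping groups with a log2 fold change of 0.12 ± 0.06 (edgeR adjusted p = 0.31), and in siprdx1 its value was 0.11 ± 0.06. Bag3 was at 158, 159.8 and 166 CPM in siNC against 174, 182 and 178 CPM in siNC+H2O2. These groups did not overlap, which made Bag3 the fifth member with siNC+H2O2 wholly above siNC, where 12.5% of all tested genes had that order. Its log2 fold change of 0.15 ± 0.06 did not pass (edgeR adjusted p = 0.15). In siprdx1 the Bag3 groups overlapped, and the 4 members that passed were the ones without overlap, where 10.5% of all tested genes had that order. Dnajb4 had log2 fold changes of -0.10 ± 0.10 and -0.08 ± 0.10 with H2O2, and its value in siprdx1 turned to 0.03 without siprdx1+H2O2 replicate 2. Hsph1, Hsp90aa1 and Hspd1 ran from -0.07 to 0.10 over both arms, and none of them passed. Beside these results, 2 of 12 macrophage markers rose with H2O2 in siNC, where their sum was 7882 to 8758 CPM before and 9086 to 9773 CPM after, with none at 0. In siprdx1 3 of 7 fibroblast markers tested rose with H2O2, and the list sum went from 15077 to 15828 CPM to 17328 to 18600 CPM. In siNC none of these 7 passed, with sums of 17886 to 18934 CPM before and 19003 to 19702 CPM after. The part of the macrophage and fibroblast markers in the result was not tested.

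The second comparison asks what 6 h of fluvastatin did after H2O2. In siNC 8 of the 10 members rose, all but Hsph1 and Hspd1, where 13.5% of all tested genes rose. The same 8 rose in siprdx1, where 12.6% of all tested genes did. In each arm those 8 were also the members whose fluvastatin libraries all lay above the H2O2 libraries, an order found in 19.9% of tested genes in siNC and 17.7% in siprdx1. The median log2 fold change of the members was 0.54 in siNC and 0.80 in siprdx1, beside -0.01 in both arms over all genes tested. The H2O2 and fluvastatin comparisons of an arm share its H2O2 libraries, so their values for a gene are not independent.

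Dnajb1, Dnajb4 and Hspa1b had the largest rises in each arm. The J protein gene Dnajb4, at 94.6, 104.7 and 85.0 CPM in siNC+H2O2, reached 415, 411 and 362 CPM with fluvastatin. In siprdx1 it went from 102, 75.6 and 91.1 CPM to 403, 378 and 409 CPM. The fluvastatin libraries were far above all others, with folds of 4.18 in siNC (log2 2.06 ± 0.10, edgeR adjusted p = 6.51e-13) and 4.44 in siprdx1 (log2 2.15 ± 0.10, edgeR adjusted p = 2.49e-13). Dnajb1 reached 274, 272 and 295 CPM in siNC+H2O2+FV and 271, 292 and 278 CPM in siprdx1+H2O2+FV, so the fluvastatin libraries of the 2 arms lay in 1 range. Its level with H2O2 alone was lower in siprdx1, and the fold over that level was larger there, at 6.08 (log2 2.60 ± 0.05, edgeR adjusted p = 1.50e-20) against 3.68 in siNC (log2 1.88 ± 0.05, edgeR adjusted p = 5.77e-18).

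Of the inducible HSP70 genes, Hspa1b reached 223, 226 and 259 CPM in siNC+H2O2+FV and 282, 315 and 274 CPM in siprdx1+H2O2+FV. All 6 were above every library without fluvastatin, with folds over H2O2 alone of 3.70 (log2 1.89 ± 0.09, edgeR adjusted p = 6.51e-13) and 4.64 (log2 2.21 ± 0.09, edgeR adjusted p = 3.00e-14). Hspa1a moved less, to 32.8, 36.0 and 36.4 CPM in siNC and to 43.4, 46.8 and 44.4 CPM in siprdx1. Its folds were 1.71 (log2 0.77 ± 0.08, edgeR adjusted p = 2.49e-07) and 2.29 (log2 1.20 ± 0.08, edgeR adjusted p = 9.56e-11). The summed pair gave 1.69 and 2.03 on the log2 scale, so the pair's change is mostly that of reads assigned to Hspa1b.

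Hspb1 with fluvastatin was at 66.9, 60.6 and 71.7 CPM in siNC and at 70.1, 67.7 and 68.6 CPM in siprdx1. The fluvastatin libraries of the 2 arms again overlapped, above all libraries without fluvastatin. The log2 fold changes over H2O2 alone were 0.65 ± 0.07 in siNC (edgeR adjusted p = 2.43e-07) and 1.08 ± 0.07 in siprdx1 (edgeR adjusted p = 3.61e-11). Bag3 rose to 215, 233 and 241 CPM in siNC, 0.36 ± 0.06 on the log2 scale (edgeR adjusted p = 5.88e-05). In siprdx1 it rose from 168, 184 and 176 CPM to 246, 253 and 245 CPM, 0.49 ± 0.06 on the log2 scale (edgeR adjusted p = 7.80e-07). The siprdx1+H2O2+FV libraries held the 3 highest Bag3 levels of all 18.

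Of the most abundant cytosolic chaperone genes, Hsp90aa1 and Hspa8, the latter had the smallest rise among the 8 members that passed. Hsp90aa1, whose protein matures kinases and receptors, was at 307, 277 and 256 CPM in siNC+H2O2 and 417, 378 and 345 CPM with fluvastatin, a log2 fold change of 0.44 ± 0.12 (edgeR adjusted p = 0.0147). In siprdx1 it went from 296, 217 and 259 CPM to 404, 306 and 390 CPM, 0.51 ± 0.12 on the log2 scale (edgeR adjusted p = 0.00551). The groups of an arm did not overlap but lay close, and the siNC call was lost without siNC+H2O2 replicate 3 (0.0719) or siNC+H2O2+FV replicate 1 (0.0741), both edgeR adjusted p. Hspa8 went from 1013, 895 and 903 CPM to 1176, 1043 and 1095 CPM in siNC and from 946, 869 and 893 CPM to 1114, 1023 and 1056 CPM in siprdx1. Its log2 fold change was 0.24 ± 0.06 in both arms (edgeR adjusted p = 0.00792 and 0.00788). With library size as the only scaling, which moved the median of all genes to -0.11 in both arms, Hspa8 fell short at 0.13 in siNC and 0.14 in siprdx1 (edgeR adjusted p = 0.0987 and 0.0994). Its call was also lost without replicate 1 of siNC+H2O2+FV (0.0532) or of siprdx1+H2O2+FV (0.0508). Hsph1, whose HSP110 protein releases nucleotide from HSP70, stayed between 20.6 and 27.5 CPM in all 18 libraries, with log2 fold changes of 0.11 ± 0.10 and 0.10 ± 0.10. Hspd1 stayed between 149.9 and 218 CPM, with 0.13 ± 0.10 and 0.13 ± 0.09, and neither gene passed in either arm.

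Of 7 smooth muscle and peritubular myoid markers, 6 rose with fluvastatin in each arm. Their sum went from 1392 to 1485 CPM in siNC+H2O2 to 2526 to 2711 CPM in siNC+H2O2+FV, and from 1159 to 1328 CPM to 2218 to 2476 CPM in siprdx1, with none at 0 in any group. Of 12 macrophage markers, 1 rose and 5 fell in siNC, where their sum went from 9086 to 9773 CPM to 8012 to 8161 CPM. In siprdx1 2 rose and 1 fell, and the sum went from 7949 to 8238 CPM to 8324 to 8711 CPM. Of 6 Leydig markers tested, 1 rose in siNC, Star by 1.34 ± 0.05 on the log2 scale. There 2 fell, Nr5a1 at -0.36 ± 0.07 and Hsd3b1 at -0.16 ± 0.05. In siprdx1 2 rose, Star by 1.40 ± 0.05 and Cyp11a1 by 0.14 ± 0.04, and 1 fell, Nr5a1 at -0.43 ± 0.07. The Leydig sum, which includes Star, was higher with fluvastatin. It was 1445 to 1497 CPM against 1165 to 1184 CPM in siNC and 1334 to 1345 CPM against 986 to 1047 CPM in siprdx1. Of 7 fibroblast markers tested, 2 fell in siprdx1, where the list sum went from 17328 to 18600 CPM to 15860 to 16526 CPM. In siNC 1 fell, and the sums overlapped, at 19003 to 19702 CPM before and 18340 to 19048 CPM with fluvastatin. The part of these markers in the rise of the chaperone genes was not tested.

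**Figure D2:**
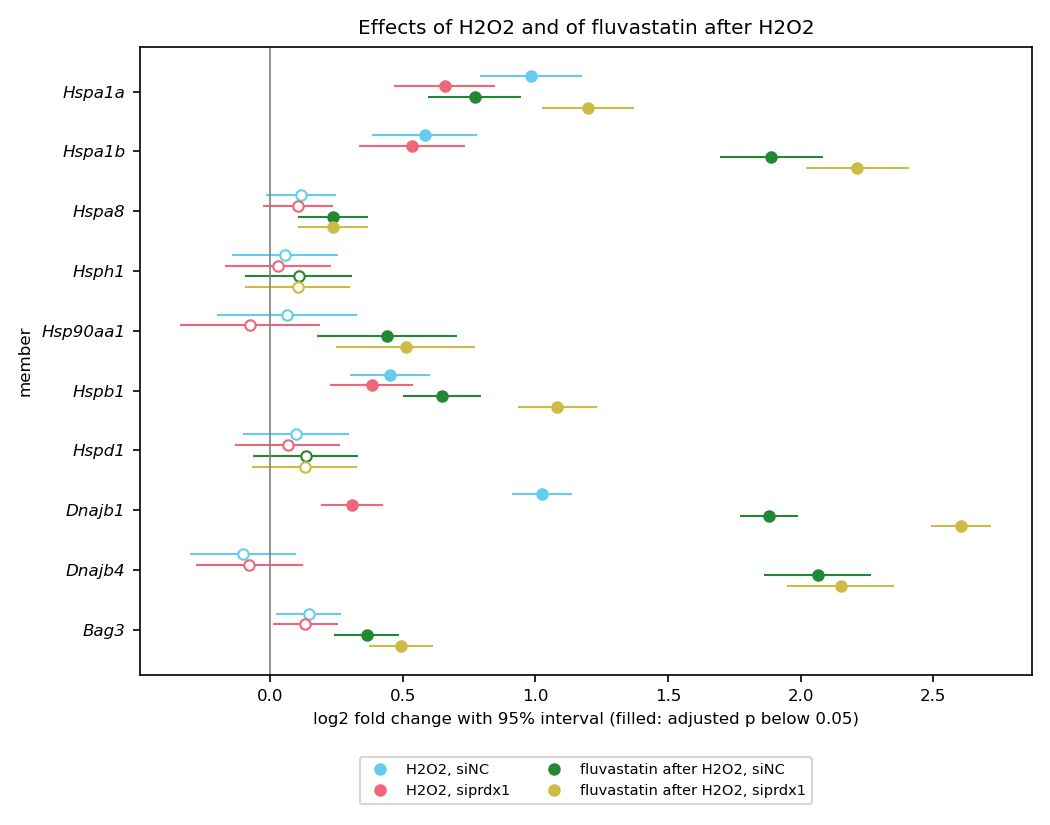
Log2 fold change of each gene (horizontal axis) with its 95% interval for H2O2 and for fluvastatin after H2O2 in each siRNA arm, with filled points where the edgeR adjusted p was below 0.05. The fluvastatin points run from near 0.10 for Hsph1 to 2.60 for Dnajb1 in siprdx1, and the H2O2 points pass for Hspa1a, Hspa1b, Hspb1 and Dnajb1.

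The third comparison sets siprdx1 against siNC under each treatment. Without H2O2 only Hspb1 passed, with all siprdx1 libraries (24.1 to 25.9 CPM) below all siNC libraries (28.8 to 34.4 CPM). Its log2 value was -0.32 ± 0.08 (edgeR adjusted p = 0.0239), where 1.67% of all tested genes fell. The call was lost in a fit of only these 2 groups, without siNC replicate 1, and without each siprdx1 library in turn, with values from -0.36 to -0.24 over the single omissions and an edgeR adjusted p of up to 0.167. For Dnajb1 the difference was -0.01, with a 95% interval from -0.13 to 0.11. Hspa1a gave 0.25 ± 0.10 (edgeR adjusted p = 0.269), and its groups overlapped. Beside these values, 3 of 7 fibroblast markers tested were lower in siprdx1, with a list sum of 15077 to 15828 CPM against 17886 to 18934 CPM, and 3 of 7 smooth muscle markers were lower, with sums of 1181 to 1301 CPM against 1409 to 1585 CPM. The Leydig sum was 1057 to 1073 CPM against 1124 to 1165 CPM. No marker of these lists was at 0, and their part in the result was not tested.

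After H2O2, 2 members were lower in siprdx1 than in siNC, Dnajb1 and Hspb1, where 1.83% of all tested genes were lower. Dnajb1 was lower by a log2 value of -0.72 ± 0.05 (edgeR adjusted p = 8.22e-09) for a fold of 0.606, and only 2.276% of tested genes had a lower log2 value. Hspb1 differed by -0.38 ± 0.07 (edgeR adjusted p = 0.00338), with siprdx1 libraries at 30.6 to 34.3 CPM and siNC libraries at 41.3 to 43.1 CPM. Hspa1a and Hspa1b, which H2O2 had raised in both arms, overlapped between the arms, with log2 differences of -0.07 (95% interval -0.25 to 0.11) and -0.02 (95% interval -0.22 to 0.17). Beside these results, 3 of 12 macrophage markers were lower in siprdx1+H2O2, with a sum of 7949 to 8238 CPM against 9086 to 9773 CPM. Of 7 fibroblast markers tested, 2 were higher and 2 lower, with a sum of 17328 to 18600 CPM against 19003 to 19702 CPM. Of 7 smooth muscle markers, 1 was lower, with a sum of 1159 to 1328 CPM against 1392 to 1485 CPM. Of 6 Sertoli markers, 2 were higher, and the sums overlapped. Of 6 Leydig markers tested, Star (-0.19 ± 0.05, edgeR adjusted p = 0.0436) and Cyp11a1 (-0.28 ± 0.04, edgeR adjusted p = 0.000593) were lower, and the Leydig sum was 986 to 1047 CPM against 1165 to 1184 CPM. Their part in the result was not tested.

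After H2O2 and fluvastatin, Hspa1a was the only member that passed, with siprdx1 libraries above siNC libraries by 0.35 ± 0.08 on the log2 scale (edgeR adjusted p = 0.0112), where 1.62% of all tested genes were higher. The call was lost without siNC+H2O2+FV replicate 1 (0.0765) or siprdx1+H2O2+FV replicate 2 (0.0718), both edgeR adjusted p. Hspa1b was higher in every siprdx1 library too, by 0.30 ± 0.09, and fell just short (edgeR adjusted p = 0.061). It passed with the replicate number as a block (edgeR adjusted p = 0.0307), in 4 other settings, without siNC+H2O2+FV replicate 3 and as the summed pair, at 0.31 (edgeR adjusted p = 0.037). Bag3 was the third member whose groups did not overlap, at 0.11 ± 0.06 (edgeR adjusted p = 0.34), where 10.8% of all tested genes had that order. Dnajb1 gave 0.0008 with a 95% interval from -0.10 to 0.11, Dnajb4 0.003 from -0.19 to 0.19, and Hspb1 0.05 from -0.09 to 0.19. The sign of such small values changed with the settings (RLE size factors put Dnajb1 at -0.00096). Hspd1 gave 0.17, 0.14 and 0.14 in the 3 treatments and did not pass. Of 7 fibroblast markers tested 3 were lower in siprdx1+H2O2+FV, with sums of 15860 to 16526 CPM against 18340 to 19048 CPM. The smooth muscle sum was 2218 to 2476 CPM against 2526 to 2711 CPM, and none of its 7 markers passed. Of 12 macrophage markers 1 was lower, while their sum was higher, at 8324 to 8711 CPM against 8012 to 8161 CPM. The Leydig sum was 1334 to 1345 CPM against 1445 to 1497 CPM, with 1 of 6 markers tested lower. Their part in the result was not tested.

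The interactions test whether a treatment effect differed between the arms. Dnajb1 was the only member that passed for H2O2, where its effect in siprdx1 was smaller by 0.72 ± 0.08 on the log2 scale (interaction -0.72, edgeR adjusted p = 1.83e-05), and 0.201% of all tested genes had a lower call. For fluvastatin 2 members passed, Dnajb1 at 0.72 ± 0.07 (edgeR adjusted p = 2.33e-06) and Hspb1 at 0.44 ± 0.10 (edgeR adjusted p = 0.0446), where 0.463% of all tested genes had a higher call. The 2 interactions share the H2O2 libraries and have opposite signs for Dnajb1, and of the 3 treatments it passed the test between the arms in those libraries alone. The Dnajb1 calls held in all 12 fits that left out 1 library, from -0.74 to -0.68 for H2O2 and from 0.68 to 0.76 for fluvastatin. The Hspb1 interaction passed in only 2 of those 12 fits, those without siNC+H2O2+FV replicate 3 and without siprdx1+H2O2 replicate 2, and in a fit of only the 4 groups its edgeR adjusted p was 0.0504. Hspa1a gave -0.32 ± 0.13 for H2O2 (edgeR adjusted p = 0.659) and 0.43 ± 0.12 for fluvastatin (edgeR adjusted p = 0.121, and 0.0488 with DESeq2). For Hspa1b the fluvastatin value was 0.32 ± 0.13 (edgeR adjusted p = 0.29). Bag3 (0.13, 95% interval -0.04 to 0.30) and Dnajb4 (0.09, 95% interval -0.19 to 0.36) did not pass, and without siprdx1+H2O2 replicate 2 the Dnajb4 value turned to -0.02.

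**Figure D3:**
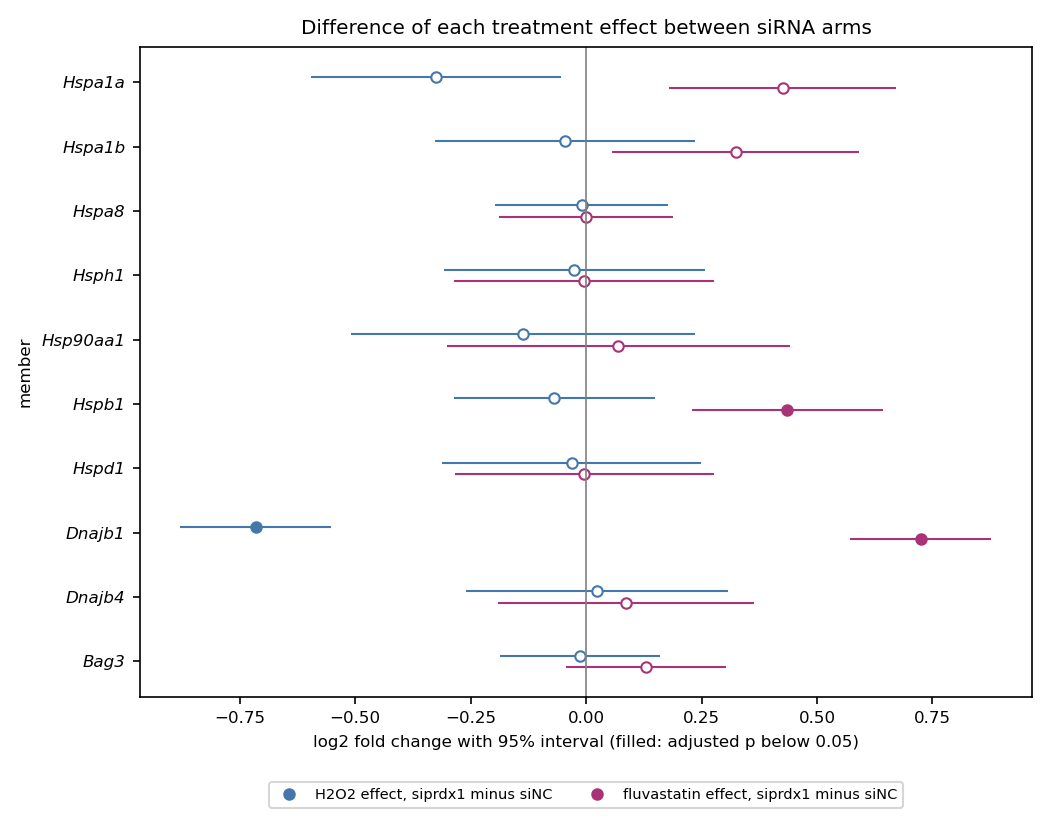
Difference of each treatment effect between siRNA arms (siprdx1 minus siNC, horizontal axis, log2) with its 95% interval for each gene, with filled points where the edgeR adjusted p was below 0.05. Dnajb1 stands at -0.72 for H2O2 and 0.72 for fluvastatin, and Hspb1 at 0.44 for fluvastatin.

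The share of the Hspa1 pair's reads assigned to Hspa1a also moved between treatments. It was 19.6 ± 1.2% in siNC, 24.4 ± 0.8% in siNC+H2O2 and 13.0 ± 0.7% in siNC+H2O2+FV (SD, n = 3). In the siprdx1 arm it was 22.3 ± 1.0%, 23.9 ± 1.9% and 13.4 ± 0.5%. All 6 fluvastatin libraries, at 12.3% to 14.0%, were below all 12 others, the lowest of which was at 18.3%. An exact two-sided permutation test within siRNA arm, chosen after the values were seen, gave a difference of -11.0 percentage points for fluvastatin against H2O2 alone (6 against 6 libraries, p = 0.005, the lowest value possible with 400 permutations, Benjamini-Hochberg adjusted p = 0.01 over 2 comparisons). That p follows from the order of the libraries already given, so it adds no support of its own. H2O2 against none gave 3.21 percentage points as the mean of the 2 arms (exact permutation p = 0.01, adjusted 0.01), and there the siprdx1 groups overlapped. A share of reads between transcripts this alike measures how reads were assigned, and what it says of each gene's own RNA is uncertain.

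**Figure D4:**
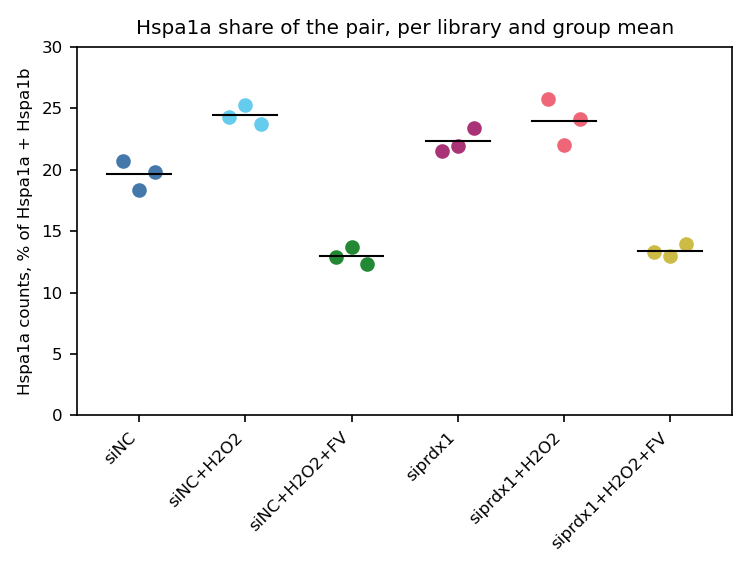
Share of the summed Hspa1a and Hspa1b counts assigned to Hspa1a (vertical axis, percent) in the 6 groups; points are single libraries and bars are group means. The fluvastatin libraries of both arms sit at 12.3% to 14.0%, below the other 12.

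Other chaperone genes were read from 7 lists of 67 genes that hold no member, of which 66 were tested. With fluvastatin 14 rose and 3 fell in each arm, where 13.5% and 11.3% of all tested genes rose and fell in siNC and 12.6% and 11% in siprdx1. The lists were chosen with earlier results of these data known, and a difference from these shares was not tested. Unc45a, a chaperone of myosin that works with HSP90, rose by 0.78 ± 0.07 in siNC and 0.87 ± 0.07 in siprdx1. Bag2, a BAG-domain cochaperone, rose by 0.53 ± 0.06 and 0.79 ± 0.06, and the J protein gene Dnajb5 by 0.62 ± 0.11 and 0.63 ± 0.11. Ahsa1, which stimulates the ATPase of HSP90, fell by 0.34 ± 0.05 and the mitochondrial J protein gene Dnaja3 by 0.29 ± 0.06 in siNC, and Bag4 fell by 0.45 ± 0.09 in siprdx1. Of the 10 genes for chaperonins and mitochondrial partners, the group nearest to Hspd1, fluvastatin raised 1 in siprdx1, and the median change was 0.02 in siNC and 0.06 in siprdx1.

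With H2O2, 6 of the 66 rose and 1 fell in siNC, where 2.36% and 4.59% of all tested genes did. In siprdx1 2 rose and 3 fell, where 2.48% and 5.39% did. Hspa5, the HSP70 of the endoplasmic reticulum, rose by 0.27 ± 0.05 in siNC (edgeR adjusted p = 0.00179), and Ppid, an HSP90 cochaperone, fell by 0.50 ± 0.11 in siprdx1 (edgeR adjusted p = 0.00669). Knockdown without H2O2 raised 6 and lowered 2, where 0.657% and 1.67% of all tested genes moved. After H2O2 the counts were 4 higher and 3 lower, where 0.901% and 1.83% of genes were, and after fluvastatin 6 higher and 1 lower, where 1.62% and 2.35% were. The genes that were higher included Hyou1, the HSP110 of the endoplasmic reticulum, by 0.31 ± 0.05, 0.38 ± 0.05 and 0.39 ± 0.05 in the 3 treatments. Hspa12a, a distant HSP70 relative, was lower without H2O2 (-0.33 ± 0.05) and after fluvastatin (-0.31 ± 0.05), and its value after H2O2, -0.18 ± 0.05, passed but was lost under 8 alternatives. The genes of the heat shock factors were measured too. Hsf1 was at 20.7, 28.9 and 23.4 CPM in siprdx1+H2O2 and 29.3, 32.0 and 29.2 CPM in siprdx1+H2O2+FV, a log2 fold change of 0.31 ± 0.11 (edgeR adjusted p = 0.0461) that was lost under 7 alternatives. In the other treatment and knockdown comparisons Hsf1 ran from -0.19 to 0.27 and Hsf2 from -0.19 to 0.14, and neither passed.

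**Figure D5:**
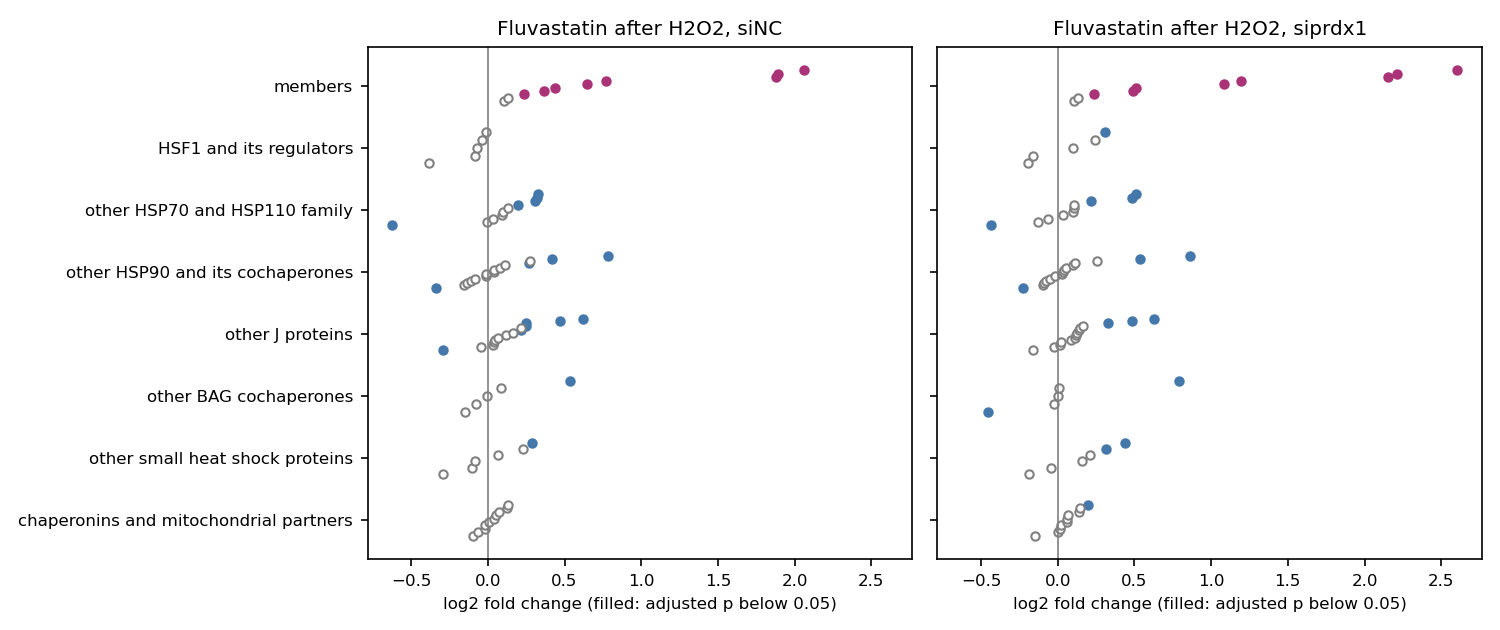
Log2 fold change with fluvastatin after H2O2 of each tested gene of the other chaperone lists (genes averaging at least 1 CPM) beside the 10 genes, by list and siRNA arm. The 10 genes reach 2.60, and of the others Unc45a is the highest in each arm, at 0.78 and 0.87.

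The members were compared by how far apart their group means lay, measured as the root mean square difference of log2 CPM over the 6 group means after centring each gene. The measure is not scaled to the size of a gene's changes, so genes that moved little lie close together. Hsph1 and Hspd1, which moved little, were the closest pair, at 0.06, followed by Hsp90aa1 and Bag3 at 0.09. Hspa1b was closer to Dnajb1 (0.25) and to Dnajb4 (0.31) than to its own copy Hspa1a (0.46), which was closest to Hspb1 (0.30). The counting could split the reads of Hspa1a and Hspa1b, so the place of each is uncertain. Among 12636 other genes, those most like Dnajb1 were Phlda1 (0.21), a stress-responsive pleckstrin homology gene, Atf3 (0.24), a stress-induced transcription factor, and Ier5 (0.24), an immediate early gene. Those most like Hspa1b were Gadd45g (0.11), a growth arrest and DNA damage gene, Ier3 (0.16), an immediate early gene, and Asb5 (0.19). The likeness rests on 6 group means that share the same libraries and describes these data only.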

How the data were processed

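Poly(A) RNA of 18 cultures was sequenced from stranded paired-end libraries, per the labels' protocols. The authors deposited raw read counts per gene. The submitters' processing notes name HISAT2, HTSeq and mm10, and the annotation and strand setting of the counting are not given in the sources used here. The 10 genes and all gene lists were chosen with earlier results of these data known.

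CPM values are counts scaled by TMM. Tests used edgeR 4.0.16 in R 4.3.3 (filterByExpr, robust quasi-likelihood fit of 6 group means to all 18 libraries, 12 residual degrees of freedom) with Benjamini-Hochberg adjustment over 16432 genes in each of 9 contrasts. Exonic lengths and coordinates came from GENCODE M21 (GRCm38). Near-identical copies were found by blastn 2.17.0+ (at least 90% identity and 100 bases). Alternatives were RLE size factors, library size alone, no low-count filter, a replicate block, only the groups compared, the Hspa1 pair summed, DESeq2 1.42.0 and each library left out in turn. The steps were tested on simulated data.

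Of the other chaperone genes, up to 3 rises and 3 falls per contrast that passed and averaged at least 1 CPM could be named, besides Hsf1, Hsf2 and Prdx1. Only some of these are named above. Those left out include Hspa12b with fluvastatin (-0.62 ± 0.14 in siNC and -0.43 ± 0.14 in siprdx1). With H2O2 in siNC they include Hspa2 (0.46 ± 0.12) and Dnajb9 (0.37 ± 0.09). Same-numbered libraries deviated together, by a correlation over 0.1 in every pair, only for H2O2 in siNC (0.135, 0.135 and 0.118). The largest values were those of replicate 2 in siprdx1. There the replicates gave 0.178, 0.256 and -0.006 for H2O2 and 0.119, 0.232 and -0.012 for fluvastatin. Hspa8 was highest in replicate 1 and lowest in replicate 2 in every group. These are hints of shared replicates from the data and not the labels, and the fit reported had no replicate block. Replicates of a group never agreed within counting noise (reduced chi-square 2.74 to 17.1).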

Additional observations from a re-analysis of the deposited data

Results flagged for a closer look

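The effect of a treatment differed between the siRNA arms, by a test of the difference itself, for 2 genes. For Dnajb1 the H2O2 effect was smaller in siprdx1 than in siNC (interaction -0.715545 on the log2 scale, or -0.72) and the fluvastatin effect was larger (0.724313, or 0.72). These Dnajb1 interactions share the H2O2 libraries and are not independent. For Hspb1 the fluvastatin effect was larger in siprdx1 (0.436044, or 0.44, edgeR adjusted p = 0.0446). The Hspb1 call was lost in most of the fits that left out 1 library.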

How the results depend on the processing

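Over all other settings and single omissions, the 4 members that H2O2 raised in each arm kept their calls and direction, as did the Dnajb1 interactions. The number of members that passed for fluvastatin, 8 in each arm in the fit reported, was less stable. It ran from 6 to 8 in siNC and from 7 to 8 in siprdx1 over single omissions. With library size alone Hspa8 did not pass in either arm. The number of members that passed for knockdown after H2O2 and fluvastatin, 1 in the fit reported, was 2 with library size alone, with no low-count filter, with the replicate block, with only the groups compared and with DESeq2 (Hspa1b joined Hspa1a), and 0 to 2 over single omissions. For knockdown without H2O2 it was 0 with only the groups compared and 0 to 1 over single omissions, and for the fluvastatin interaction 1 with only the groups compared and 1 to 2 over single omissions. The replicate block changed no other call of a member. A few values near 0 changed sign. For Dnajb1, knockdown after H2O2 and fluvastatin gave -0.000962 with RLE size factors and -0.00105 with DESeq2, and from -0.028 to 0.039 over single omissions. Its knockdown value without H2O2 was 0.026 with library size alone and from -0.038 to 0.0075 over single omissions. Single omissions put Hspb1 at -0.010 to 0.11 for knockdown after H2O2 and fluvastatin, and Dnajb4 at -0.18 to 0.031 for H2O2 in siprdx1 and at -0.022 to 0.19 for the fluvastatin interaction; the cause was not tested. With 3 libraries per group, the 95% intervals of the fluvastatin effect in siNC ran from -0.09 to 0.31 for Hsph1 and from -0.06 to 0.33 for Hspd1. The background shares moved too. With library size alone, fluvastatin raised 1474 and lowered 3835 of all tested genes in siNC (2226 and 1864 as reported) and 1463 and 3634 in siprdx1 (2066 and 1810). H2O2 in siprdx1 then raised 234 and lowered 1132 (407 and 886), and knockdown without H2O2 raised 163 and lowered 199 (108 and 275). In fits of only the groups compared, 638 genes passed for H2O2 in siprdx1 (1293 as reported), 193 for knockdown without H2O2 (383) and 183 for knockdown after H2O2 (448). For the H2O2 interaction 97 passed with no low-count filter, 69 with DESeq2 and 24 with only the groups compared (40 as reported), and for the fluvastatin interaction 281 with no low-count filter and 206 with DESeq2 (107). Over single omissions the number of genes that passed ran from 646 to 1155 for H2O2 in siNC (1142 as reported), 817 to 1256 for H2O2 in siprdx1, 204 to 344, 227 to 457 and 320 to 632 for knockdown in the 3 treatments (383, 448 and 652), 26 to 54 for the H2O2 interaction and 55 to 136 for the fluvastatin interaction.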
